A study of Mus musculus with 12 samples.

Results

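Accessible chromatin was compared before and 96 h after estradiol withdrawal in mouse myeloid progenitors that overexpress HMGN1. The comparison set the 3 HMGN1-OE libraries made at 96 h against the 3 HMGN1-OE libraries made at 0 h, that is, 6 of the 12 ATAC-seq libraries, with groups taken from the sample titles. It covered 57576 of the 60072 listed peaks, those with enough reads to be tested. HMGN1-OE cells came from transgenic C57BL/6 mice that overexpress human HMGN1, and wild-type (WT) cells came from littermates. In both genotypes CD117-positive bone marrow cells carried a retroviral ER-HoxB8 fusion and were grown with interleukin 3. The 96 h cells had gone without estradiol for that time, and the 0 h cells still had it. The labels call the replicates biologically independent, but the number of separate immortalizations behind each genotype was not found in the methods, so p-values measure the spread between these libraries.

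HMGN1 is a small protein that binds nucleosomes and loosens the packing of chromatin. HoxB8 is a homeobox transcription factor that holds progenitors in an immature, dividing state. Fused to the estrogen receptor it works only while estradiol is present, so that withdrawal lets the cells mature toward granulocytes. ATAC-seq reads accessibility as the number of transposase insertions in a region, and regulatory elements that come into use or go out of use appear as peaks that open or close. In bulk libraries, a change in the mixture of cells and a change within each cell cannot be told apart.

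The deposited RPKM values (reads scaled to peak width and to library size) were whole multiples of a single read, so library totals could be recovered. Totals were 31047300 to 35560463 reads in HMGN1-OE libraries at 96 h, against 24407267 to 28181229 at 0 h. The share of reads in listed peaks was 29.5, 28.5 and 24.7% in the 3 HMGN1-OE libraries at 96 h, against 40.2, 41.0 and 43.9% in the 3 at 0 h. The groups did not overlap, and the difference of -14.08 percentage points had an exact two-sided permutation p of 0.1, the smallest that 3 libraries against 3 allow. Without the 200 highest peaks the difference was -14.00 points. One WT library lay away from its fellows: replicate 1 at 96 h had 50.02% of its reads in peaks, against 39.7 and 35.1% in the other WT libraries at that time. Values below are RPKM after TMM scaling, which centers most peaks on no change. Genotype calls at a single time are given on this scale only. Some genotype orders at 96 h do not hold on the RPKM as deposited. The share of reads in peaks enters the deposited scale, and its part in the balance of calls was not tested.

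Estradiol withdrawal was followed by change at most peaks of HMGN1-OE cells. At a limma adjusted p under 0.05, 18453 peaks (32.0%) opened and 15548 (27.0%) closed, so that 59.1% of tested peaks moved. The 3 libraries at 96 h all lay above the 3 at 0 h for 33.6% of tested peaks and all lay below them for 29.7%. Peaks called with a change over 2-fold were 18.0% of those tested upward and 9.69% downward. Past 4-fold on the log2(RPKM + 1) scale, 2252 peaks (3.91%) rose and 996 (1.73%) fell. This balance turned on the RPKM as deposited, where 865 rose and 2255 fell over 4-fold. Peaks that opened had a median of 5.12 scaled RPKM at 96 h and 1.35 at 0 h, and peaks that closed had 3.04 at 96 h and 7.26 at 0 h. On the RPKM as deposited, the median change of all peaks was -0.53 in place of 0.00, and the split was 10604 higher and 30029 lower. All 15548 peaks called lower stayed lower on that scale, 10604 of those called higher stayed higher, and 358 turned to a called decrease. Each of the 2252 and 996 peaks past 4-fold kept its call under all 4 scalings tried. The number past 4-fold follows the constant added before taking logs, with 6969 higher and 2648 lower when 0.1 was added in place of 1.

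**Figure D1:**
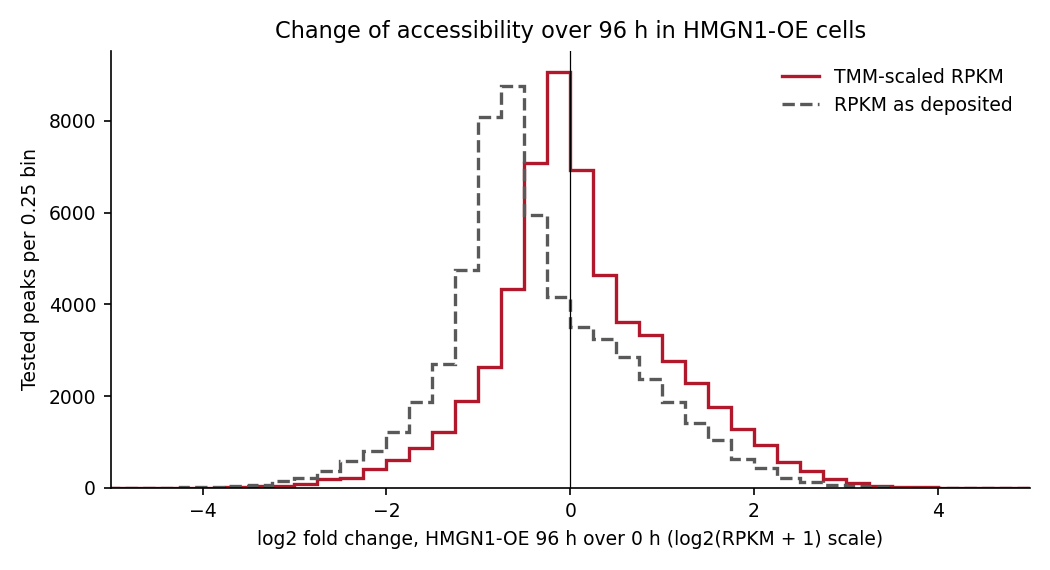
Histogram of the log2 fold change of 57576 tested peaks, HMGN1-OE 96 h over 0 h, with peaks per bin on the y axis. The solid line is TMM-scaled RPKM (median 0.00) and the dashed line is RPKM as deposited (median -0.53); the long right shoulder holds the 2252 peaks that rose over 4-fold.

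As a share of all reads in peaks, the peaks that opened held 37.0% ± 0.55 (SD, n = 3) in HMGN1-OE libraries at 96 h and 20.4% ± 0.12 at 0 h. Those that closed held 19.9% ± 0.16 at 96 h and 34.2% ± 0.23 at 0 h. These shares describe the peaks by the contrast that chose them. The WT libraries had no part in that choice apart from the shared scaling and spread. In WT, the peaks that opened in HMGN1-OE cells held 36.1% ± 1.27 at 96 h and 21.5% ± 0.33 at 0 h, and those that closed held 19.95% ± 0.52 at 96 h and 30.9% ± 0.33 at 0 h. Accessible reads thus moved between the same peaks in both genotypes. Peaks without a call in HMGN1-OE cells held 42.9% ± 0.42 of HMGN1-OE reads in peaks at 96 h, against 45.3% ± 0.11 at 0 h.

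The peaks with the largest opening were almost closed while estradiol was present. The 10 named opened peaks had group means of 14.9 to 33.9 scaled RPKM at 96 h, against 0.087 to 0.921 at 0 h, and log2 fold changes of 3.82 to 4.54. They lay on 7 chromosomes and were 192 to 1595 bp wide. All 10 also opened in WT cells, where the background was 33.2% of tested peaks higher. No gene is given for any peak, since an annotation of the build of the files, mm9, was not used here.

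The peak at chr16:65197115-65197651 had no reads in 2 of the 3 libraries at 0 h. It stood at 15.2, 17.1 and 18.1 scaled RPKM in HMGN1-OE libraries at 96 h, against 0, 0.26 and 0 at 0 h, which were 205, 233 and 240 reads at 96 h against 0, 4 and 0 reads at 0 h. In WT it stood at 13.1, 16.0 and 17.1 at 96 h, against 1.20, 0.919 and 0.607 at 0 h. On the TMM scale the 96 h levels of the genotypes overlapped, while every WT library at 0 h lay above every HMGN1-OE library at 0 h. The log2 fold change was 4.04 (SE 0.17, limma adjusted p = 4.93e-13) in HMGN1-OE and 3.11 in WT cells.

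A broad region of 1595 bp at chr10:35764024-35765618 was near 0 before withdrawal in both genotypes. HMGN1-OE libraries had 13.0, 16.2 and 15.6 scaled RPKM at 96 h, against 0.0593, 0.263 and 0.0381 at 0 h. WT libraries had 9.95, 15.2 and 13.0 at 96 h, against 0.234, 0.199 and 0.187 at 0 h. The ranges of the genotypes overlapped at both times, with log2 fold changes of 3.83 in HMGN1-OE (SE 0.18, limma adjusted p = 1.70e-12) and 3.49 in WT cells, and the difference between those changes did not pass the test (0.34, limma adjusted p = 0.401).

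At chr8:107497446-107497908 the genotypes differed at both times on the TMM scale. HMGN1-OE libraries had 24.3, 26.5 and 24.1 scaled RPKM at 96 h, against 0.818, 0.377 and 0.459 at 0 h. WT libraries had 14.7, 16.4 and 17.6 at 96 h, against 3.45, 1.68 and 1.93 at 0 h. On that scale HMGN1-OE cells thus began lower and ended higher, with no overlap of libraries at either time. On the RPKM as deposited they also began lower, but the libraries of the genotypes overlapped at 96 h. The log2 fold change was 4.08 in HMGN1-OE (SE 0.17, limma adjusted p = 3.95e-13) and 2.39 in WT cells, a difference of 1.68 (limma adjusted p = 0.000159) that kept its call under all 4 scalings.

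The other named opened peaks had a similar shape. The peak at chr17:13406944-13407538 stood at 28.2, 27.4 and 26.5 scaled RPKM at 96 h, against 0.53, 1.47 and 0.765 at 0 h in HMGN1-OE cells. The peak at chr3:118456431-118456961 stood at 24.5, 27.0 and 24.3 at 96 h, against 0.713, 0.987 and 0.686 at 0 h. Both were tight at 96 h and low in every library at 0 h, with log2 fold changes of 3.91 (SE 0.16) and 3.87 (SE 0.13). A narrow peak of 192 bp at chr8:68918134-68918325 had 11.6, 17.7 and 17.3 at 96 h, against 0.164, 0 and 0.316 at 0 h, and rested on 56, 86 and 82 reads at 96 h against 1, 0 and 2 reads at 0 h. The peak at chr16:41032333-41032605 had 13.6, 15.5 and 17.8 at 96 h, against 0.116, 0 and 0.445 at 0 h. At these 2 narrow peaks single reads set the values at 0 h. The remaining 3, at chr10:17211353-17212035, chr6:52811101-52811727 and chr13:88599157-88599644, had the largest changes, 4.54, 4.51 and 4.32.

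The choice of these peaks favors low HMGN1-OE values at 0 h, and their genotype calls are given as a description. Of the 10 opened peaks, 7 were called lower in HMGN1-OE than in WT cells at 0 h and none higher, where 14.4% of all tested peaks were lower and 8.70% higher. At 96 h 2 were called higher and none lower, where 10.8% of all tested peaks were higher and 11.2% lower. Group means at 0 h had a median of 0.361 scaled RPKM in HMGN1-OE and 1.59 in WT cells. At 96 h the medians of the group means were 24.8 in HMGN1-OE and 19.3 in WT cells. For 8 of the 10 the change in HMGN1-OE cells exceeded that in WT cells by the interaction test, with 11.0% of all tested peaks called that way. The peaks were picked for a large change in HMGN1-OE cells, which favors this direction, so nothing is read from the count. On the RPKM as deposited, 1 of the 8, at chr8:107497446-107497908, kept the interaction call.

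**Figure D2:**
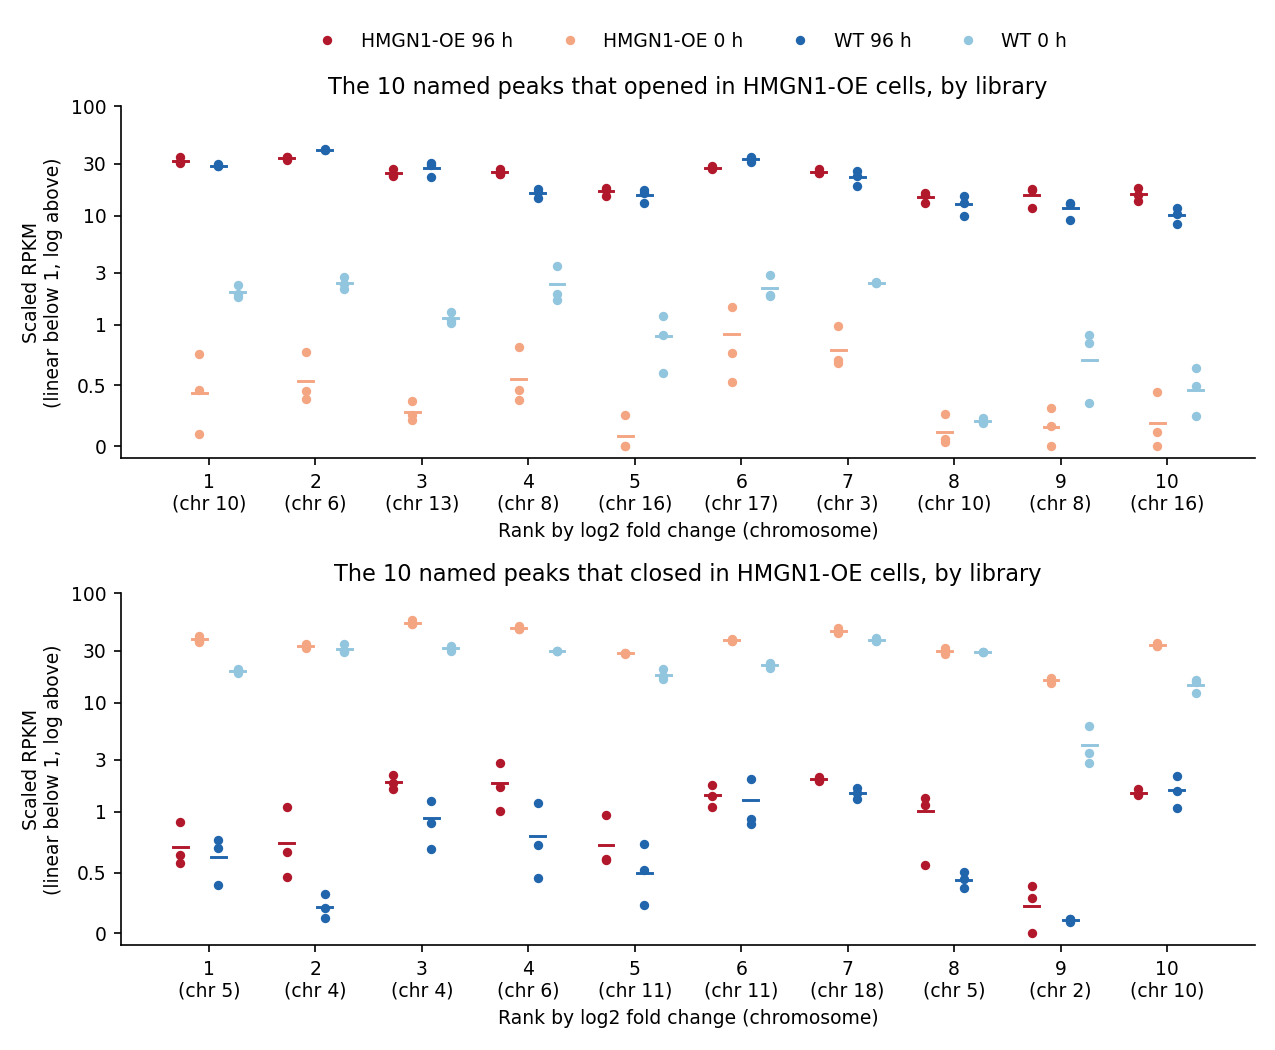
Scaled RPKM (y axis, linear below 1 and logarithmic above) of the 10 named opened peaks (upper panel) and the 10 named closed peaks (lower panel) in each library, with bars for group means. HMGN1-OE 96 h and 0 h are in dark and light red, WT 96 h and 0 h in dark and light blue; opened peaks sat at 14.9 to 33.9 in HMGN1-OE cells at 96 h and below 1 at 0 h on average, and closed peaks at 0.227 to 2.00 at 96 h and 16.1 to 54.0 at 0 h.

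The peaks with the largest loss were open in progenitors and nearly shut at 96 h. The 10 named closed peaks had group means of 0.227 to 2.00 scaled RPKM in HMGN1-OE cells at 96 h, against 16.1 to 54.0 at 0 h, with log2 fold changes of -4.52 to -3.79. They kept 1.41 to 4.48% of the 0 h level. All 10 also closed in WT cells, where the background was 30.7% of tested peaks lower.

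The highest of these progenitor peaks lay at chr4:142951402-142952251. HMGN1-OE libraries had 1.83, 2.18 and 1.62 scaled RPKM at 96 h, against 57.1, 52.0 and 52.7 at 0 h. WT libraries had 1.25, 0.696 and 0.911 at 96 h, against 29.8, 31.8 and 32.7 at 0 h. On the TMM scale HMGN1-OE cells lay above WT cells at both times with no overlap. Both kept about the same share of the 0 h level on that scale, 3.48% in HMGN1-OE and 3.03% in WT. On the RPKM as deposited the libraries of the genotypes overlapped at 96 h. The log2 fold change was -4.26 in HMGN1-OE (SE 0.12, limma adjusted p = 4.46e-15) and -4.06 in WT cells.

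A peak at chr18:58873507-58874146 closed to the same degree in both genotypes on the TMM scale. It had 1.93, 2.10 and 1.96 scaled RPKM in HMGN1-OE libraries at 96 h, against 48.6, 43.8 and 44.8 at 0 h. In WT it had 1.31, 1.48 and 1.66 at 96 h, against 38.8, 37.0 and 36.7 at 0 h. The log2 fold changes were -3.96 in HMGN1-OE (SE 0.10, limma adjusted p = 1.99e-15) and -3.96 in WT cells, and their difference was -0.01 (SE 0.14).

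At chr2:8747088-8747499 the peak was stronger in HMGN1-OE than in WT progenitors, where it was also open. HMGN1-OE libraries had 0, 0.287 and 0.393 scaled RPKM at 96 h, against 15.2, 16.2 and 16.9 at 0 h. WT libraries had 0.12, 0.0958 and 0.117 at 96 h, against 2.81, 6.16 and 3.43 at 0 h. Levels were near 0 at 96 h in both genotypes, and each HMGN1-OE library at 0 h exceeded each WT library at 0 h. The log2 fold change was -3.82 in HMGN1-OE (SE 0.22, limma adjusted p = 2.41e-11) and -2.15 in WT cells.

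Among the other closed peaks, that at chr6:72227258-72228014 had 1.69, 2.82 and 1.02 scaled RPKM at 96 h, against 47.5, 47.1 and 49.9 at 0 h in HMGN1-OE cells. That at chr11:88047113-88048161 had 1.41, 1.77 and 1.12 at 96 h, against 36.9, 38.2 and 37.1 at 0 h. Replicates at 0 h lay within a few percent of each other at both, and the changes were -4.16 (SE 0.18) and -3.99 (SE 0.15). A second peak on chromosome 11, at chr11:49745400-49745927, had 0.604, 0.972 and 0.613 at 96 h, against 28.4, 28.6 and 28.1 at 0 h. At chr10:80414551-80415091 HMGN1-OE cells had 1.62, 1.46 and 1.42 at 96 h, against 34.9, 32.8 and 32.8 at 0 h, and kept 4.48% of the 0 h level where WT cells kept 10.8%. The difference between the changes at the chr10 peak, -1.18, passed the interaction test (limma adjusted p = 0.000879). The region at chr5:147395994-147397395, 1402 bp wide, had 1.17, 0.563 and 1.33 at 96 h, against 31.7, 29.3 and 27.9 at 0 h, and chr5:150069326-150069943 and chr4:82872998-82873768 had the most negative changes, -4.52 and -4.31.

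The choice of the closed peaks likewise favors high HMGN1-OE values at 0 h. Of the 10, 7 were called higher in HMGN1-OE than in WT cells at 0 h and none lower. Over all tested peaks 8.70% were higher at that time and 14.4% lower. At 96 h 4 were called higher and none lower, where 10.8% of all tested peaks were higher and 11.2% lower. These genotype counts are given as a description. The interaction was called below 0 at 3 of the 10, where 6.10% of all tested peaks were, and again the choice of peaks favors that direction. Of these 3, the calls at chr5:150069326-150069943 and chr2:8747088-8747499 were lost with limma-voom (limma adjusted p = 0.442 and 0.311).

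A small set of peaks went from the detection floor to clearly open. In 104 peaks on 19 chromosomes every HMGN1-OE library at 0 h had at most 3 reads and every one at 96 h had at least 30. The reverse, at most 3 reads at 96 h and at least 30 at 0 h, held for 14 peaks on 11 chromosomes. All 104 and all 14 were called in HMGN1-OE cells, as such a choice makes them. All 104 were also called higher in WT cells, where 33.2% of all tested peaks were. Yet only 1 of the 104 went from at most 3 to at least 30 reads in every WT library. Their median WT level was 4.87 scaled RPKM at 96 h and 0.481 at 0 h. By the test of genotype at 0 h, 20 of the 104 were lower in HMGN1-OE cells and none higher, against 14.4% and 8.70% of all tested peaks, a direction that the choice of low 0 h counts favors. In WT libraries 27 peaks met the floor-to-open rule and 40 the reverse rule. A floor set in reads depends on depth, which differed between the libraries, so these counts are not set against each other.

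Peaks were next sorted by how accessible they were in WT progenitors. The level in WT libraries at 0 h, which the HMGN1-OE contrast does not contain, was used for this. Below 1 scaled RPKM in WT at 0 h, 76.3% of 7652 peaks opened and 4.13% closed in HMGN1-OE cells. From 2 to 4 the shares were about even, 25.4% opened and 25.1% closed. From 16 to 32, 14.4% opened and 45.6% closed. The weakest peaks below 1 scaled RPKM in WT at 0 h needed reads in other libraries to pass the read filter. Peaks that enter the table or pass that way favor opening in the lowest class, so the share there is a description only. Among the 976 peaks at 64 or more, 16.8% opened and 17.3% closed in HMGN1-OE cells. In these cells the strongest peaks thus moved least often of all classes on the TMM scale, with a median log2 fold change of -0.02. This depends on the scale: as deposited, 3.28% of them were higher and 93.0% lower, whereas below 1 scaled RPKM 61.7% were still higher and 6.81% lower. In WT cells 3.18% of the peaks at 64 or more were higher and 85.45% lower on the TMM scale, with a median of -0.44. The classes were made from WT levels at 0 h, which favors a fall of the strongest peaks in WT cells.

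Width gave a weaker pattern that differed between levels. Under 300 bp, 36.4% of peaks opened and 20.4% closed. At 1200 bp and over, 21.7% opened and 28.9% closed, but wide peaks were also stronger, with a median WT level at 0 h of 14.96 scaled RPKM against 2.18 for the narrow ones. Within the class of 2 to 4 scaled RPKM in WT at 0 h the order was turned round, with 38.0% of the 150 widest and 21.8% of the narrowest peaks opened. From 4 to 8 these shares were 20.9% of the widest and 15.8% of the narrowest, and from 8 to 16 they were close, 16.4% and 17.2%.

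In HMGN1-OE cells isolated peaks opened more often than those with close neighbors. Where the nearest tested peak was 50 kb or more away, 43.3% of 3167 peaks opened and 18.2% closed. At 2 to 5 kb 34.5% opened and 28.8% closed. As deposited, 28.9% of the isolated peaks and 19.8% of those at 2 to 5 kb were higher. In WT cells 36.3% of the isolated peaks opened and 27.3% closed, against 38.3% and 28.9% of those at 2 to 5 kb. The excess of opening over that class was thus seen in HMGN1-OE cells and not in WT cells. Against wider spacings isolated peaks opened more often in both genotypes. At 5 to 10 kb 30.25% opened in HMGN1-OE and 32.0% in WT cells, and at 10 to 50 kb 29.8% and 29.4%. Isolated peaks were weaker, with a median WT level at 0 h of 2.07 scaled RPKM against 4.21 for those at 2 to 5 kb, and the part of level in the difference was not tested. Among chromosomes, the share that opened ranged between 27.2% on chromosome 11 and 35.6% on chromosome 1, and the share that closed between 20.5% on chromosome X and 30.4% on chromosome 5.

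**Figure D3:**
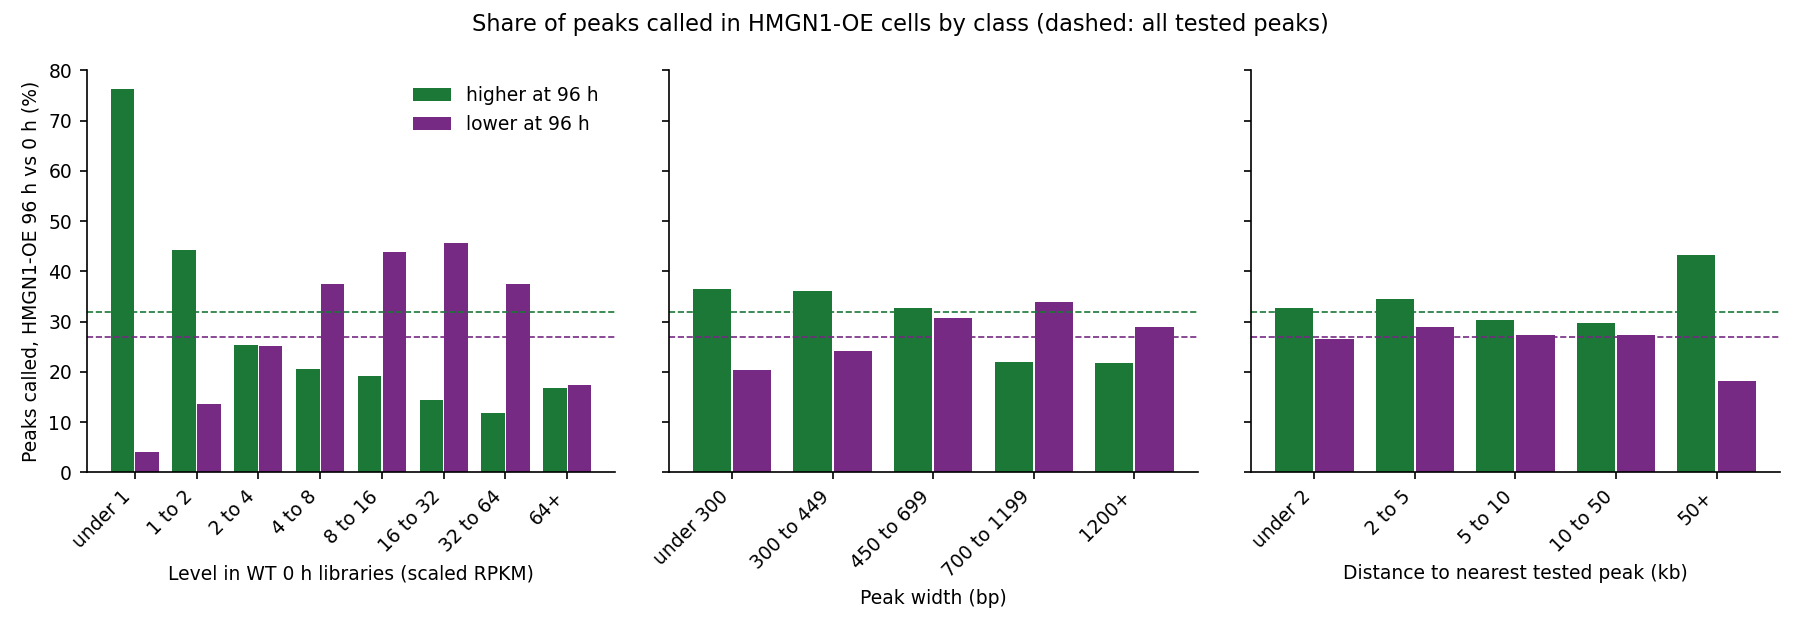
Percent of tested peaks called higher (green) and lower (purple) at 96 h against 0 h in HMGN1-OE cells, by WT level at 0 h, by width and by distance to the nearest tested peak, with dashed lines at the shares over all tested peaks, 32.0% and 27.0%. The share opened was 76.3% in the weakest class (whose lowest peaks needed reads in other libraries to pass the read filter) and 16.8% in the strongest, and 43.3% among peaks 50 kb or more from any other.

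The changes of neighboring peaks were more alike under 1 kb than farther apart. For pairs of adjacent peaks under 1 kb apart, the log2 fold changes in HMGN1-OE cells had a Pearson r of 0.42 across 1769 pairs, and in 77.8% of the 589 pairs with both peaks called the direction was the same. At 1 to 2 kb r was 0.31 and the share 69.1%. Beyond that r fell off to 0.08 at 200 kb and over, but the share with the same direction did not fall steadily, being 65.7% at 5 to 10 kb, 63.0% at 50 to 200 kb and 68.2% at 200 kb and over, against 64.0% over all pairs. These are descriptions across pairs that share libraries, and nearby peaks can split a single open region.

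At the scale of 200 kb, opening and closing were mixed. Of 4640 windows with at least 5 tested peaks, 3633 (78.3%) held both opened and closed peaks, and 1206 held at least 3 of each. Every tested peak opened in 44 windows and every one closed in 6. In 151 windows at least 80% of peaks opened, and in 67 at least 80% closed.

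Named windows were ranked by the median change in HMGN1-OE cells. That favors many called peaks and larger changes in HMGN1-OE than in WT cells, so their counts and medians are a description. Over all tested peaks 32.0% opened and 27.0% closed in HMGN1-OE cells. The window with the highest median change was chr10:10400001-10600000, where 5 of 5 peaks opened with a median log2 fold change of 2.43 in HMGN1-OE and 1.64 in WT cells. Its peak at chr10:10462019-10462233 had 13.7, 18.5 and 14.9 scaled RPKM in HMGN1-OE libraries at 96 h, against 1.32, 0.975 and 1.27 at 0 h. The next peak upstream, at chr10:10460158-10460903, had 9.68, 10.4 and 11.0 at 96 h, against 0.55, 0.749 and 0.855 at 0 h. These 4 clustered peaks thus opened by similar amounts (2.40 to 2.93), and the fifth, at chr10:10493824-10494008, was low and scattered at 96 h, with 0.216, 1.28 and 3.06, against 0.171, 0 and 0 at 0 h.

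In chr6:138000001-138200000 all 5 peaks opened in both genotypes, with median changes of 2.25 in HMGN1-OE and 2.00 in WT cells. The peak at chr6:138088562-138089170 had 19.0, 26.1 and 17.8 scaled RPKM in HMGN1-OE libraries at 96 h, against 0.777, 1.32 and 0.898 at 0 h. At chr6:138020227-138020888, HMGN1-OE libraries reached 3.13, 2.92 and 4.10 at 96 h, whereas WT libraries reached 8.64, 9.90 and 7.68 at that time. The window did not differ between the genotypes in a single direction: 1 of its peaks was called above 0 and 1 below 0 in the interaction. The windows chr16:44800001-45000000, chr1:195600001-195800000 and chr7:26800001-27000000 had 5 of 6, 5 of 5 and 5 of 5 peaks opened, with medians of 2.21, 2.21 and 2.19. In the first of these, the peak at chr16:44962791-44963453 was already open and stood at 8.36, 10.3 and 8.79 at 96 h, against 10.04, 9.27 and 9.62 at 0 h, beside neighbors that opened.

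The window with the most negative median was chr11:114000001-114200000, where 9 of 10 peaks closed in HMGN1-OE cells with a median log2 fold change of -1.67, and 8 of 10 closed in WT cells with a median of -1.84. The strongest of them, at chr11:114183625-114184516, had 8.90, 7.75 and 8.08 scaled RPKM in HMGN1-OE libraries at 96 h, against 28.3, 26.8 and 28.9 at 0 h. In WT it had 4.497, 4.51 and 4.72 at 96 h, against 27.5, 28.5 and 24.9 at 0 h. On the TMM scale the start levels overlapped, and the HMGN1-OE libraries stayed above the WT libraries at 96 h. On the RPKM as deposited the libraries of the genotypes overlapped at 96 h and not at 0 h. The other 4 windows, chr15:83400001-83600000, chr9:7200001-7400000, chr2:71800001-72000000 and chr4:139200001-139400000, had medians of -1.57, -1.54, -1.49 and -1.44. Without the filter on low peaks, the medians of the chr2 and chr4 windows were -0.86 and -0.42. The chr9 window held 5 closed peaks and a single opened peak, at chr9:7336804-7337373, with 2.73, 2.35 and 3.27 at 96 h, against 1.16, 0.674 and 1.01 at 0 h.

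**Figure D4:**
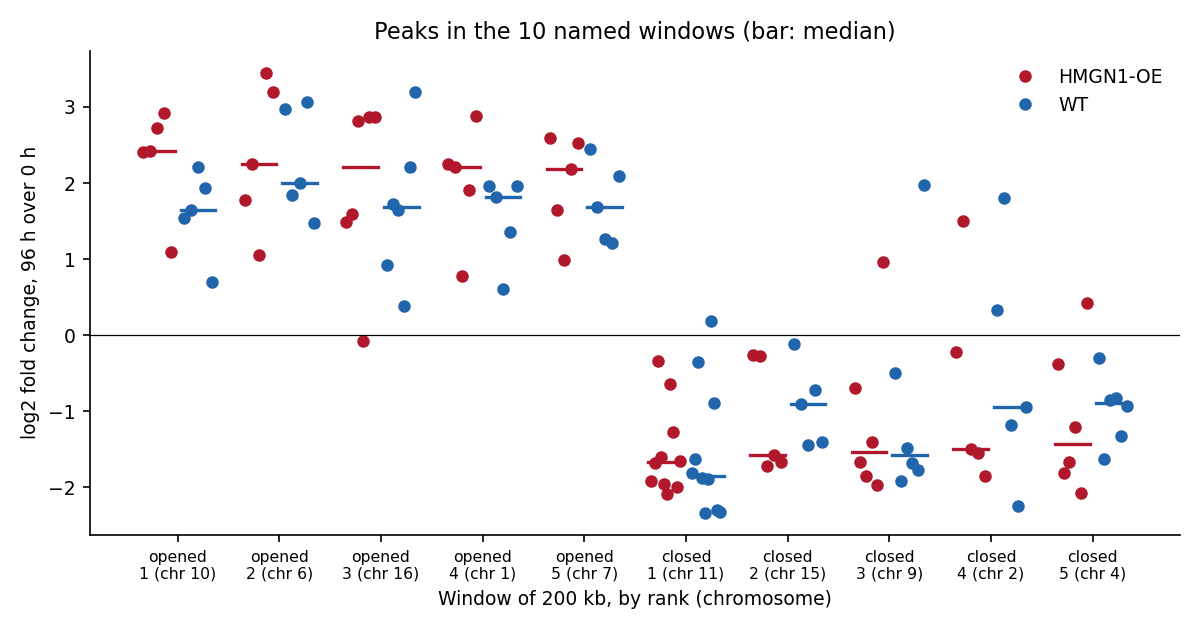
Log2 fold change, 96 h over 0 h, of every tested peak in the 10 named windows of 200 kb, in HMGN1-OE cells (red, left) and WT cells (blue, right), with bars for medians. The 5 opened windows had HMGN1-OE medians of 2.19 to 2.43 and the 5 closed windows of -1.67 to -1.44, and WT medians had the same sign in all 10. Windows were ranked by the HMGN1-OE median, which favors larger changes in HMGN1-OE cells.

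Most of the response was shared with WT cells. The contrasts share no library, but they share the scaling and the estimate of spread. Over all tested peaks, 33.2% were called higher and 30.7% lower in WT cells. Of the 18453 peaks that opened in HMGN1-OE cells, 14896 (80.7%) opened, 464 (2.51%) closed and 3093 were not called in WT cells. Of the 15548 that closed, 11516 (74.1%) closed, 209 (1.34%) opened and 3823 were not called in WT cells. The peaks that opened in HMGN1-OE cells had a median change of 1.09 there and 1.04 in WT cells, and those that closed -0.79 and -0.73. Other peaks moved in WT cells without a call in HMGN1-OE cells, 4020 of them higher and 5723 lower. Absence of a call is not a difference: by the interaction test, 1150 of those 4020 rose less and 2440 of those 5723 fell less in HMGN1-OE cells.

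The extent of the change along its own course was also described. On an axis with 0 at the mean HMGN1-OE profile at 0 h and 1 at that at 96 h, made each time without the HMGN1-OE library being placed, HMGN1-OE libraries lay at 0.974 to 0.984 at 96 h and at 0.001 to 0.031 at 0 h. WT libraries lay at 1.03 to 1.07 at 96 h and at 0.187 to 0.2003 at 0 h. WT cells at 0 h thus stood part of the way along this axis in all 3 libraries. No test was made, as the axis is built from the same libraries.

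A minority of peaks responded differently in the genotypes. The change in HMGN1-OE cells exceeded that in WT cells at 6317 peaks (11.0%) and was below it at 3510 (6.10%), by the limma interaction test. The balance turned under 2 of the 4 scalings, with 491 above and 26459 below 0 as deposited and 4013 above and 5972 below 0 when scaled to reads in peaks. Of these, 490 above 0 and all 3510 below 0 were called under all 4 scalings, so that the count above 0 depends on the scale, and 3510 is the smallest count below 0 among the 4 scalings. Without WT replicate 1 at 96 h the counts were 5008 above and 2588 below 0.

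**Figure D5:**
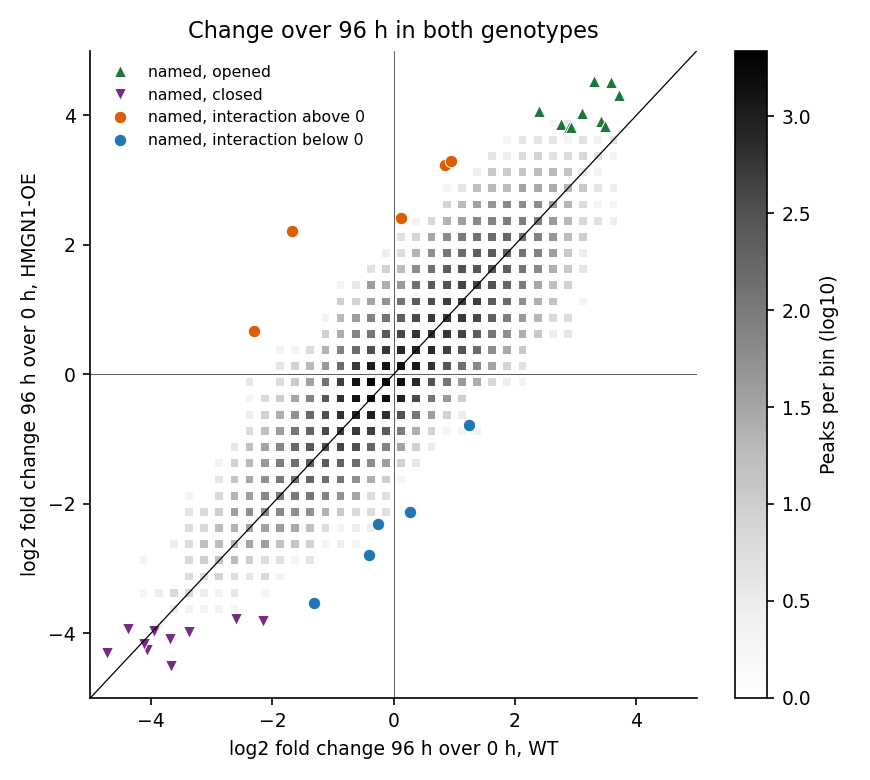
Log2 fold change, 96 h over 0 h, in HMGN1-OE cells (y axis) against WT cells (x axis), with the number of tested peaks per square in grey on a log scale, the line of equal change, and the named peaks in color. The 10 opened and 10 closed peaks lie in the corners where both genotypes moved, and the peaks named for an interaction lie above or below the line by 2.04 to 3.90.

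Peaks with the largest interaction above 0 were mostly sites where HMGN1-OE progenitors were low and WT progenitors were not. At chr11:87606856-87607687, HMGN1-OE libraries had 20.1, 18.5 and 20.3 scaled RPKM at 96 h, against 3.53, 2.98 and 2.19 at 0 h. WT libraries had 12.2, 16.2 and 15.2 at 96 h, against 16.1, 15.3 and 9.43 at 0 h. The WT libraries at 96 h and 0 h overlapped and HMGN1-OE libraries did not, with changes of 2.42 in HMGN1-OE (limma adjusted p = 1.91e-10) and 0.11 in WT cells (limma adjusted p = 0.556), and an interaction of 2.30 (SE 0.23, limma adjusted p = 7.59e-06).

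At chr14:106178533-106178895 the WT change was smaller but in the same direction. HMGN1-OE libraries had 22.5, 22.1 and 18.7 scaled RPKM at 96 h, against 1.30, 1.25 and 1.17 at 0 h. WT libraries had 8.94, 12.2 and 9.73 at 96 h, against 5.34, 4.37 and 4.79 at 0 h. On the TMM scale HMGN1-OE cells began below and ended above WT cells without overlap, and the interaction was 2.35 (SE 0.19, limma adjusted p = 1.12e-06). On the RPKM as deposited the libraries of the genotypes overlapped at 96 h. A second peak on that chromosome, chr14:97131310-97131619, had 14.5, 11.2 and 17.6 at 96 h, against 0.712, 0.901 and 0.294 at 0 h in HMGN1-OE cells, with an interaction of 2.39 (SE 0.31). The peaks at chr16:49952051-49952654 and chr5:73762152-73762648 moved in opposite directions, rising by 2.22 and 0.68 on the log2 scale in HMGN1-OE cells and changing by -1.68 and -2.31 in WT cells.

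Peaks with the most negative interaction were mostly sites accessible in HMGN1-OE progenitors and little so in WT progenitors. At chr16:8530027-8530489, HMGN1-OE libraries had 1.38, 0.853 and 1.05 scaled RPKM at 96 h, against 8.45, 7.17 and 8.79 at 0 h. WT libraries had 0.321, 0.426 and 0.627 at 96 h, against 0.294, 0.229 and 0.117 at 0 h. The peak was near 0 in every WT library and fell in HMGN1-OE cells to 13.4% of the 0 h level, with an interaction of -2.39 (SE 0.28, limma adjusted p = 3.18e-05).

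At chr5:120589229-120589585, HMGN1-OE libraries had 0.782, 0.774 and 1.13 scaled RPKM at 96 h, against 13.3, 11.2 and 11.9 at 0 h. WT libraries had 0.555, 0.553 and 1.22 at 96 h, against 1.62, 1.09 and 1.29 at 0 h. The genotypes overlapped at 96 h and were far apart at 0 h, and the interaction was -2.38 (SE 0.28, limma adjusted p = 3.18e-05). At chr10:44497042-44497747, HMGN1-OE libraries had 0.396, 0.336 and 0.229 at 96 h, against 16.1, 12.7 and 14.2 at 0 h, and at chr7:99588261-99588538 they had 0.717, 1.56 and 0.874 at 96 h, against 10.3, 7.04 and 10.3 at 0 h. WT means at 0 h were 1.94 at the chr10 and 1.88 at the chr7 peak. The chr10 interaction, -2.22 (limma adjusted p = 5.96e-05), did not pass with limma-voom on the recovered reads (limma adjusted p = 0.171). The fifth peak, chr2:28446803-28447385, differed from these in that WT cells opened there (1.25) while HMGN1-OE cells closed (-0.78). It was also open in WT progenitors, with means at 0 h of 5.77 in HMGN1-OE and 3.14 in WT cells.

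Across the 10 peaks named for an interaction, the genotypes were called different at 0 h in all 10 and at 96 h in 4. At 0 h HMGN1-OE cells were lower in all 5 with an interaction above 0 and higher in all 5 below 0. The rule that picked them favors such starts, and these counts are given as a description.

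The strongest peaks that held their level are described for scale, with no test on the choice. The 5 had group means of 138 to 198 scaled RPKM at 96 h and 138 to 187 at 0 h in HMGN1-OE cells, and were 654 to 1062 bp wide. At chr7:52184777-52185430, HMGN1-OE libraries had 168, 164 and 159 at 96 h, against 170, 159 and 153 at 0 h, while WT libraries had 145, 172 and 172 at 96 h, against 240, 236 and 188 at 0 h. At chr7:51560019-51561080, HMGN1-OE libraries had 141, 144 and 130 at 96 h, against 160, 146 and 135 at 0 h, while WT libraries had 118, 140 and 148 at 96 h, against 230, 220 and 180 at 0 h. In WT cells all 5 were called lower at 96 h, by -0.63 to -0.23 on the log2 scale. Over all tested peaks 30.7% were lower in WT cells, and 85.45% of those at 64 or more scaled RPKM in WT at 0 h. Of the 5, 4 passed the interaction test above 0, where 11.0% of all tested peaks did. That direction turned at all 4 on the RPKM as deposited, where the 5 peaks changed by -0.74 to -0.56 in HMGN1-OE cells, so whether these peaks held or fell depends on the scale.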

How the data were processed

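ATAC-seq was made by the Omni-ATAC protocol, and the authors deposited RPKM per peak on mm9 for 12 libraries, made with the ChiLin pipeline, BWA and MACS per the study's methods. Peak merging and the threshold are not given in the sources used. RPKM times width gave whole reads in 100% of values (tolerance 0.001 reads), from which library totals and TMM factors (30% and 5% trims) came. Wilson 95% half-widths of the shares of reads in peaks were at most 0.02 points and cover counting error only.

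Peaks with the equivalent of 10 reads in at least 3 libraries and 15 in all were tested with limma 3.58.1 in R 4.3.3 (trend, robust) on log2(scaled RPKM + 1), with 4 group means, two-sided, and Benjamini-Hochberg adjustment over all 57576 peaks. This scale understates changes of low peaks. The script was tested on simulated data. Every pair of replicates differed by more than sampling noise.

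Named peaks had an adjusted p under 0.05, no overlap between times and a mean above the median (3.94 scaled RPKM): the 10 largest changes each way and the 5 largest interactions each way, at most 1 per 200 kb. Also named were the 5 highest peaks with a change under 0.1 and the 5 windows each way with the most extreme medians. The comparison, rules and lists were chosen with earlier results of these data known. Gene lists, markers and motifs were not analysed here, as the reference table describes another build. Coordinates are 1-based.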

Additional observations from a re-analysis of the deposited data

Results flagged for a closer look

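The change over 96 h differed between the genotypes by the limma interaction test at 6317 peaks above 0 (larger, or less negative, in HMGN1-OE cells) and at 3510 below 0. Of the 35 named peaks, 25 passed this test, where 17.1% of all tested peaks did. Peaks named for the interaction had to pass it, and the choice of opened and closed peaks favors it. Nothing is therefore read from the count. The values of the 25 are log2 differences, HMGN1-OE change minus WT change. Peaks named for the interaction above 0 had 3.90 (chr16:49952051), 2.98 (chr5:73762152), 2.39 (chr14:97131310), 2.35 (chr14:106178533) and 2.30 (chr11:87606856). Those named for it below 0 had -2.39 (chr16:8530027), -2.38 (chr5:120589229), -2.22 (chr10:44497042), -2.06 (chr7:99588261) and -2.04 (chr2:28446803). These 10 kept their direction under every alternative run.

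Opened peaks that passed had 1.23 (chr10:17211353), 0.92 (chr6:52811101), 0.61 (chr13:88599157), 1.68 (chr8:107497446), 0.93 (chr16:65197115), 1.11 (chr3:118456431), 0.92 (chr8:68918134) and 0.90 (chr16:41032333). Closed peaks that passed had -0.84 (chr5:150069326), -1.66 (chr2:8747088) and -1.18 (chr10:80414551). Steady peaks that passed had 0.33 (chr17:57170901), 0.46 (chr7:52184777), 0.54 (chr7:51560019) and 0.59 (chr7:134352082). Of these 15 opened, closed and steady peaks, 13 lost the call or turned under at least 1 alternative, and those at chr8:107497446 and chr10:80414551 kept it under all that were run. The calls at chr5:150069326 and chr2:8747088 ended with a pseudocount of 0.1 (limma adjusted p = 0.111 and 0.131) and with limma-voom (limma adjusted p = 0.442 and 0.311). The values of the 8 opened peaks shrank to between -0.07 and 0.97 on the RPKM as deposited.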

How the results depend on the processing

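Against 18453 peaks higher and 15548 lower, RPKM as deposited gave 10604 and 30029 (26.1% of calls higher in place of 54.3%), median-ratio scaling 17947 and 16469, scaling to reads in peaks 17664 and 17306, and limma-voom 18400 and 15407. Peaks over 4-fold, 2252 higher and 996 lower, became 865 and 2255 as deposited, 6969 and 2648 with a pseudocount of 0.1, 263 and 210 with a pseudocount of 3, and 7402 and 2770 with limma-voom. The interaction, 6317 above and 3510 below 0, became 491 and 26459 as deposited and 4013 and 5972 when scaled to reads in peaks. Leaving out each HMGN1-OE replicate in turn gave 16914 to 17597 higher, 13930 to 14827 lower, 2248 to 2418 and 962 to 1154 over 4-fold, 5136 to 5749 and 2656 to 3475 for the interaction, and -15.0 to -12.7 points for the share of reads in peaks. Calls in all 6 of these fits numbered 15218 higher (82.5%) and 11630 lower (74.8%). Replicate numbers did not pair the libraries (deviations of same-numbered libraries correlated at -0.04 to 0.06), and the fit with a replicate block gave 18452 higher and 15581 lower. All 20 opened and closed peaks kept direction and call under every alternative. The medians of the 10 named windows kept their sign under every alternative, and 45 of 170 such values moved by more than the spread between replicates: without the filter those on chromosomes 2 and 4 were -0.86 and -0.42, in place of -1.49 and -1.44, and with a pseudocount of 3 the 10 lay between 1.24 and 1.71 or between -1.06 and -0.80. Interactions that turned on the RPKM as deposited were those at chr13:88599157 (-0.073), chr17:57170901 (-0.59), chr7:52184777 (-0.46), chr7:51560019 (-0.37) and chr7:134352082 (-0.33). The scaling sets these directions by construction; what lowers the share of reads in peaks was not tested. Leaving out WT replicate 1 at 96 h, chosen after seeing the data, gave 18420 higher and 15521 lower, and the interactions at chr13:88599157, chr16:41032333 and chr17:57170901 no longer passed.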
